A study of Mus musculus with 6 samples.

Results

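The genes described here encode the machinery that builds chromosomes and moves them in mitosis. Their groups are centromere and kinetochore, spindle assembly, and condensin and cohesin regulators. The last group holds subunits of condensin itself, Top2a, Mki67 and genes that protect or release cohesin. All the genes were chosen by name, as 47 listed symbols leaving out kinesins other than Cenpe. The rule uses no measured value, but the list was drawn up with earlier results of these arrays known. Of the 47, 46 had an array row naming that gene alone, among 30627 genes measured in all. Hjurp, the chaperone that loads the centromeric histone, has no level here because its row names several genes. No member had a second row.

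RNA came from 6 cultures of mouse CD4+ T cells, each measured on 1 Affymetrix array: 3 TH17-skewed cultures kept in glutamine and 3 kept without it. All cultures began as sorted naive cells and were stimulated through CD3 and CD28 for 3 days in medium with 10% fetal bovine serum. TGF-beta was added at 1.25 ng/ml, both IL-23 and IL-6 at 20 ng/ml, and IL-4, IL-12 and IFN-gamma were blocked with antibodies at 10 ug/ml in every culture, so the groups differed by label in glutamine alone. The labels name no mouse strain or age. Arrays of a group are labelled as biological replicates, with nothing on whether each is a different mouse. The p-values therefore speak of the spread among these cultures, which may be partly technical.

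At mitosis the kinetochore assembles on chromatin marked by the histone variant CENP-A and captures spindle microtubules. Condensin, with topoisomerase II, compacts the chromosomes, and cohesin holds sister chromatids together until separase cleaves it. Activated T cells divide rapidly, and many of these genes are transcribed in a wave that peaks in G2 and mitosis. In dividing mammalian cells that wave is known to depend on a promoter element called the cell cycle homology region, or CHR, and often on CCAAT boxes bound by NF-Y.

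The promoters of 4 members are shown because they are the largest falls whose RefSeq promoter holds both elements. Each runs from 250 bases before to 50 bases after the annotated gene start, 5′ to 3′ on the gene's own strand, in build GRCm38.p6. The stretches are chr11:40733388-40733687 for Hmmr, chr7:80294201-80294500 for Prc1, chr1:189688037-189688336 for Cenpf and chr11:78301341-78301640 for Spag5, with Hmmr and Cenpf on the minus strand and Prc1 and Spag5 on the plus strand. Capitals mark every CHR element (TTTGAA or TTCGAA) and every CCAAT box (CCAAT), each on either strand, so a CHR element may read TTCAAA and a CCAAT box ATTGG.
Hmmr: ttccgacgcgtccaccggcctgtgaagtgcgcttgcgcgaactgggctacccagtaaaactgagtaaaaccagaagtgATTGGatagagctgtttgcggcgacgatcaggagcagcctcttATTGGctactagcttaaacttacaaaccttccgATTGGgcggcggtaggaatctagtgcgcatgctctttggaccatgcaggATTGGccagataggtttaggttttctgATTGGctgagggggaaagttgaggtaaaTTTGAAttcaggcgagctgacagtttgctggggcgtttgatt
Prc1: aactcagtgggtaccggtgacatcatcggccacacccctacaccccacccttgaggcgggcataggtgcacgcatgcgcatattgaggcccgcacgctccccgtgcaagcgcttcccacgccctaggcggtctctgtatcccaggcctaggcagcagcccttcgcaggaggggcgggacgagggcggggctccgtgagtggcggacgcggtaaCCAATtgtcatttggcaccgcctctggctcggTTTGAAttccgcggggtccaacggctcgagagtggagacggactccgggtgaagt
Cenpf: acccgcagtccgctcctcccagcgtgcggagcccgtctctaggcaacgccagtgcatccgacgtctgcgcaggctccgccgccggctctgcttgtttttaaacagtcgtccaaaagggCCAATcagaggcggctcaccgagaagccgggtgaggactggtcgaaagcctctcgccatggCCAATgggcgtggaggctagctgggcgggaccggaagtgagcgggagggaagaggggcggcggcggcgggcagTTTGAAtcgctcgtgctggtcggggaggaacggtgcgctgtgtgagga
Spag5: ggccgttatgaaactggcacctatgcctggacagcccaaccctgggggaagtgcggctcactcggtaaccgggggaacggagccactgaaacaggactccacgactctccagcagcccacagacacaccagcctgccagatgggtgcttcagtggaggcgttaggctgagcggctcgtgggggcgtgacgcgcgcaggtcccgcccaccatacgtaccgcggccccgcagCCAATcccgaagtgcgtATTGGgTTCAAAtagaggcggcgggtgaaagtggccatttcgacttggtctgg
In Hmmr the CHR element starts 9 bases after the gene start and 5 CCAAT boxes, all on the opposite strand, lie upstream of it. In Cenpf the element starts 3 bases after the start, with CCAAT boxes at -132 and -71. In Prc1 it spans the start, from -5, with 1 CCAAT box at -37. Prc1 has more than 1 annotated start and the first listed is shown.

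Every member was lower in the cultures without glutamine, and 45 of the 46 passed the test. For all 46, the highest of the 3 arrays without glutamine lay below the lowest of the 3 arrays with it. The median change was -1.30 log2, against a median of 0.060 over all genes. Among all genes tested, 12.9% were called lower and 9.29% higher (22.2% in either direction; limma, adjusted p under 0.05), and 18.8% had groups that did not overlap in the lower direction. Of the members, 34 fell by at least 1 log2, as 2.84% of all genes did, and 5 fell by at least 2 log2, as 0.519% did. Of the 46 members, 37 were among the 5% of genes (1531) with the largest falls. The exception to the call was Smc4, a condensin subunit. Changes are log2 differences on the authors' deposited scale, without minus with glutamine, and are not given as folds because that scale may have been stretched by a step the sources do not name. In such bulk RNA, fewer dividing cells and less of these transcripts per dividing cell cannot be told apart.

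**Figure D1:**
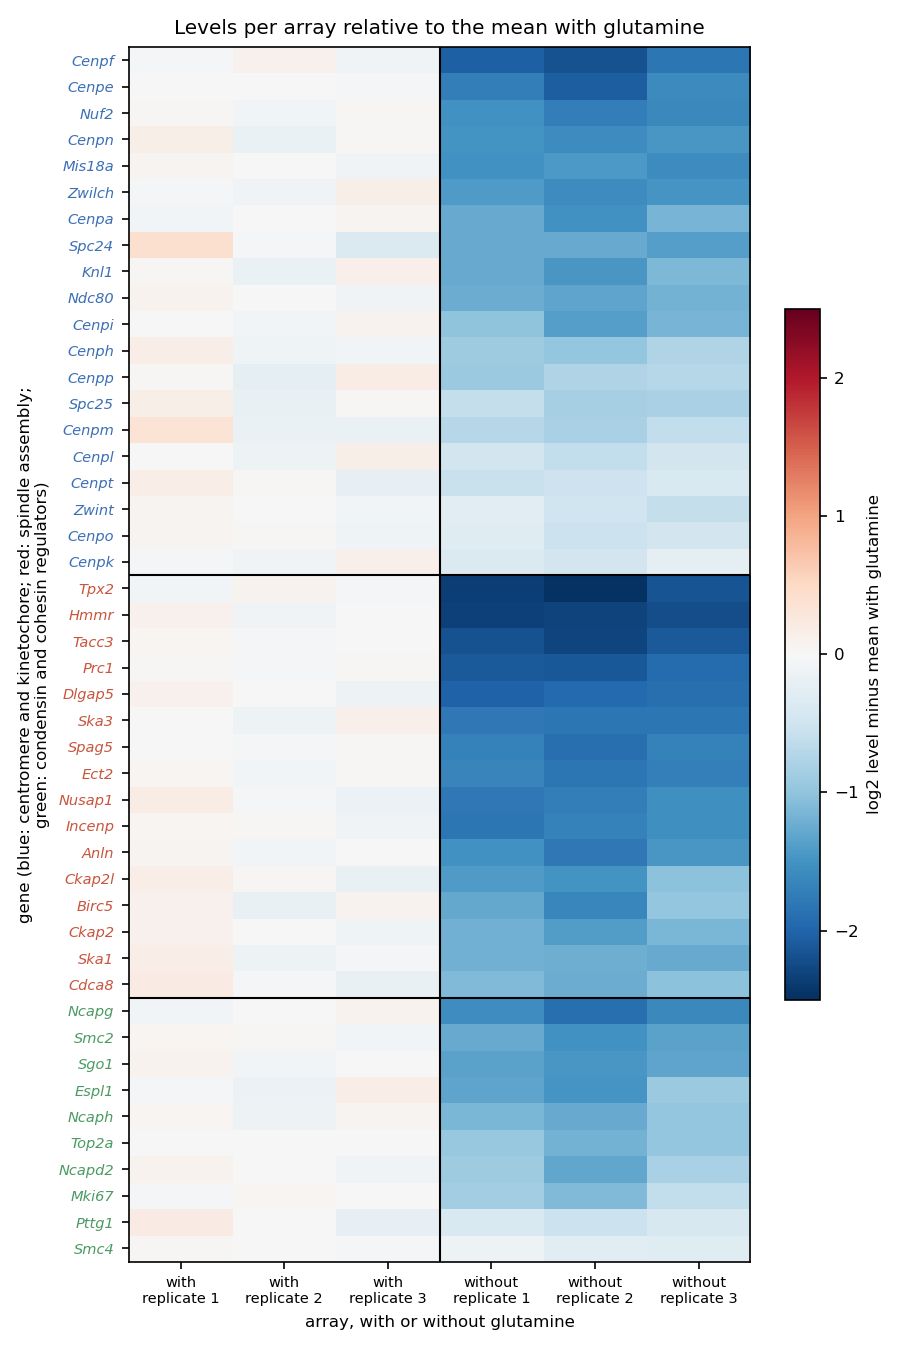
Heat map of the 46 measured genes (rows, by role) in the 6 arrays (columns), each cell the log2 level minus that gene's mean with glutamine. All cells without glutamine are below 0, deepest for Tpx2 (mean change -2.32) and palest for Smc4 (-0.24).

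The arrays of a group agreed closely on these genes, with a median SD of 0.095 log2 with glutamine and 0.11 without it. Array 2 without glutamine was the lowest of its group for 34 of the 46 members, while it was the lowest for 28.2% of all genes. Array 3 without glutamine was the highest of its group for 30 members, against 28.7% of all genes. With glutamine, array 1 was the highest of its group for 27 members, against 40.4% of all genes. The per-array median of the members was 10.61 to 10.90 log2 with glutamine and 9.31 to 9.57 without it, whereas the median over all genes was 4.61 to 4.64 and 4.71 to 4.77.

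The centromere and kinetochore genes all fell, 20 of 20 measured, with a median change of -1.21 and a range of -2.01 to -0.35. The largest falls were those of the outermost layer, the fibrous corona. Cenpf, a large corona protein, measured 10.49, 10.62 and 10.43 log2 with glutamine and 8.47, 8.34 and 8.70 without it. It fell by 2.01 ± 0.11 (SE; limma adjusted p = 0.000167). Cenpe, the corona motor that carries chromosomes toward the spindle equator, measured 11.93, 11.94 and 11.90 with glutamine and 10.20, 9.87 and 10.33 without it. The arrays with glutamine were nearly identical for Cenpe, and its change of -1.79 ± 0.12 (adjusted p = 0.000339) was large beside either spread.

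The NDC80 complex, the main grip of the kinetochore on microtubules, fell in each of its 4 subunits. Nuf2 measured 11.48, 11.38 and 11.48 with glutamine and 9.93, 9.72 and 9.83 without it, a change of -1.62 ± 0.080 (SE; adjusted p = 0.000121). Its partner Ndc80 fell by 1.24, and the subunits that anchor the complex to the inner kinetochore, Spc24 and Spc25, also fell (-1.30 and -0.74). Spc24 was uneven with glutamine, at 10.96, 10.52 and 10.19, yet all 3 values stood above the highest without it, 9.30. Knl1, the scaffold on which checkpoint proteins gather, fell by 1.28. Zwilch, a subunit of the RZZ complex that recruits dynein, fell by 1.49, but Zwint, which links KNL1 to that complex, fell by 0.46.

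The inner kinetochore network, which sits on centromeric chromatin throughout the cell cycle, held the smaller falls of this group. Its 9 members fell by a median of 0.71, and only Cenpn (-1.51) and Cenpi (-1.18) fell by 1 log2 or more. Cenph (-0.87), Cenpp (-0.79), Cenpm (-0.71), Cenpl (-0.51) and Cenpt (-0.49) lay between those and the smallest changes. Cenpk measured 9.03, 8.99 and 9.20 with glutamine and 8.71, 8.61 and 8.84 without it, a change of -0.35 ± 0.092 (adjusted p = 0.0369). Cenpo measured 7.11, 7.05 and 6.93 with glutamine and 6.73, 6.50 and 6.56 without it, a change of -0.43 ± 0.089 (adjusted p = 0.0163). The groups did not overlap for either gene, but the gap between them was 0.16 for Cenpk and 0.20 for Cenpo.

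The calls of Cenpk, Cenpo, Cenpt and Zwint were each lost when any of several single arrays was left out, with adjusted p up to 0.114, 0.0603, 0.0756 and 0.0686. That of Cenpm was lost without array 1 or 2 of the cultures lacking glutamine (adjusted p 0.0541 and 0.069). After quantile normalization Cenpk (-0.15, adjusted p = 0.384), Cenpl (-0.32, 0.0748) and Cenpt (-0.29, 0.085) no longer passed. At the centromere itself, Cenpa, the histone variant that marks it, fell from 9.25 ± 0.070 to 7.94 ± 0.18 (SD, n = 3), and Mis18a, needed to license its deposition, from 8.53 ± 0.075 to 7.03 ± 0.067.

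The 16 spindle assembly genes fell without exception and by at least 1.12 each, with a median change of -1.70. Of the 5 members that fell by 2 log2 or more, 4 stand here. Tpx2, which activates Aurora A and nucleates microtubules near chromosomes, measured 13.48, 13.63 and 13.52 with glutamine and 11.19, 11.08 and 11.39 without it. Its change of -2.32 ± 0.099 (SE; adjusted p = 8.82e-05) was the largest of all members and the 98th largest among all genes tested. Hmmr, a spindle protein that partners with Tpx2, measured 12.98, 12.79 and 12.86 with glutamine and 10.55, 10.57 and 10.67 without it. Its groups were separated by a gap of 2.12, and it fell by 2.28 ± 0.079 (adjusted p = 6.78e-05).

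Tacc3, which crosslinks spindle fibres, measured 11.36, 11.28 and 11.31 with glutamine and 9.15, 9.02 and 9.21 without it, a change of -2.19 ± 0.075 (adjusted p = 6.78e-05). Prc1, which bundles the antiparallel microtubules of the central spindle, fell by 2.04. The other microtubule-bound factors, Dlgap5 (-1.94), Spag5 (-1.75), Nusap1 (-1.68), Ckap2l (-1.31) and Ckap2 (-1.25), followed. None of these 9 overlapped between groups, and the narrowest gap among them was 0.84, for Ckap2l.

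Ska1 and Ska3 encode subunits of the SKA complex, which keeps kinetochores attached to shortening microtubules. Ska1 measured 7.29, 7.01 and 7.09 with glutamine and 5.94, 5.91 and 5.88 without it, a change of -1.22 ± 0.089 (SE; adjusted p = 0.000419), while Ska3 fell by 1.80. Of the chromosomal passenger complex, which corrects faulty attachments, Incenp, its scaffold, fell by 1.68 and Birc5, which encodes survivin, fell by 1.29. Cdca8, which encodes borealin, measured 9.74, 9.52 and 9.36 with glutamine and 8.44, 8.29 and 8.51 without it, a change of -1.12 ± 0.12 (adjusted p = 0.00142). Ect2 and Anln, which build the cleavage furrow that splits the cell, also fell (-1.73 and -1.59). Birc5 had the widest spread of all members without glutamine, at 5.81, 5.45 and 6.12, all below its lowest value with glutamine, 6.91.

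**Figure D2:**
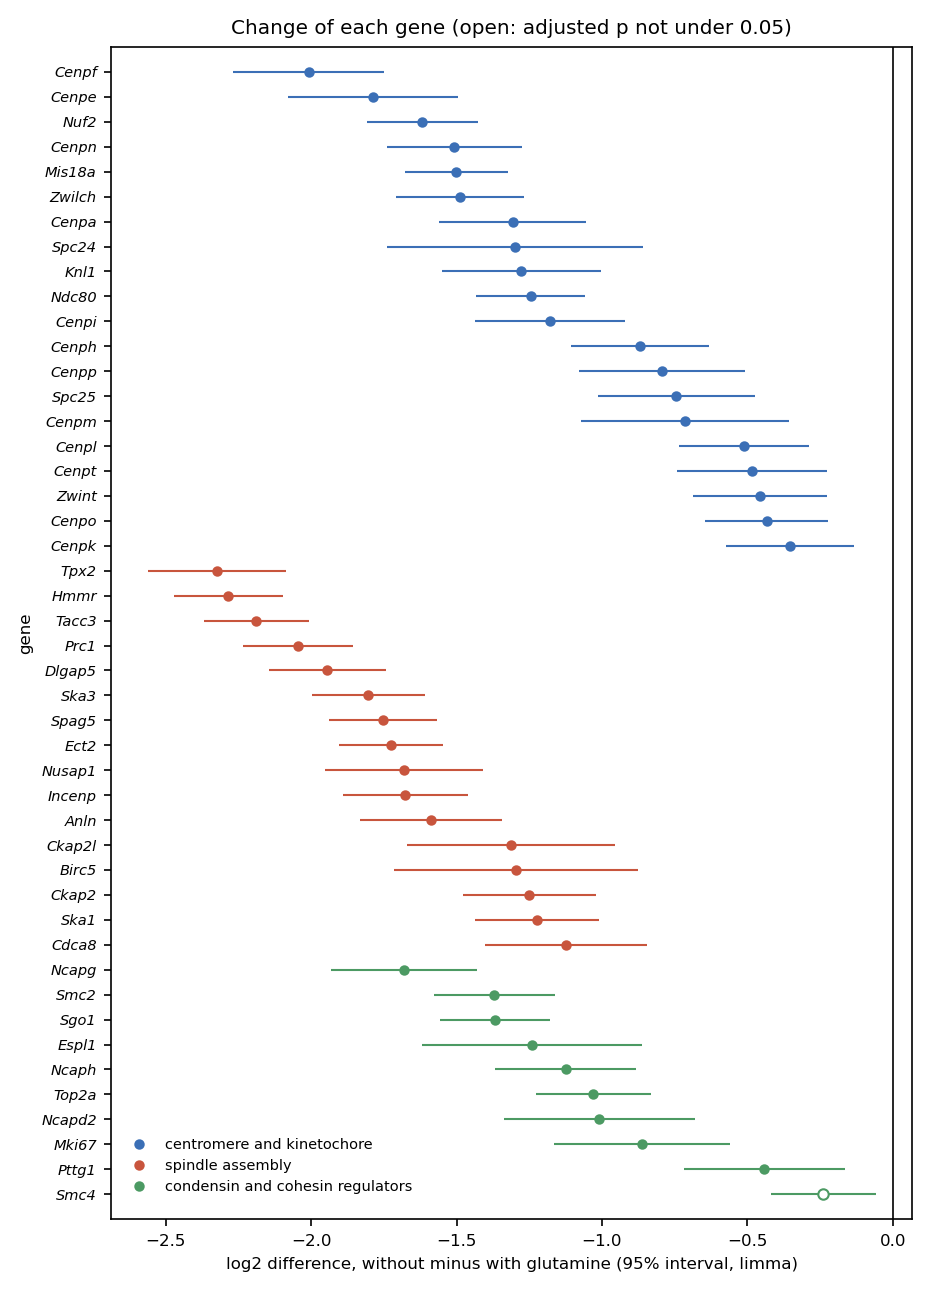
Change of each gene (rows) as the log2 difference without minus with glutamine, with its 95% interval from limma, coloured by role. Intervals of the 45 called genes lie below 0, from Tpx2 at -2.32 to Cenpk at -0.35; the open point is Smc4 (-0.24).

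The condensin and cohesin regulators fell in 9 of 10 cases, with a median change of -1.08. Ncapg, a HEAT-repeat subunit of condensin I, measured 11.13, 11.20 and 11.28 with glutamine and 9.65, 9.32 and 9.59 without it, a change of -1.68 ± 0.11 (SE; adjusted p = 0.000262). Smc2, a core ATPase of condensin, measured 12.79, 12.77 and 12.68 with glutamine and 11.48, 11.23 and 11.41 without it, a change of -1.37 ± 0.087 (adjusted p = 0.000277). Its partner ATPase gene is the member that did not pass. Smc4 measured 14.90, 14.87 and 14.84 with glutamine and 14.75, 14.59 and 14.56 without it, a difference of -0.24 (95% interval -0.42 to -0.06) with adjusted p = 0.0662. The groups of Smc4 did not overlap but were only 0.093 apart, and it passed after the arrays were centred on their medians (-0.35, adjusted p = 0.0222) and with array weights (0.0447) or without array 1 of the cultures lacking glutamine (0.0429); its adjusted p ranged from 0.0222 to 0.362 over all alternatives.

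The remaining condensin I subunits, Ncaph and Ncapd2, fell as well (-1.12 and -1.01). Top2a, the topoisomerase that untangles sister DNA, fell from 14.88 ± 0.0098 to 13.85 ± 0.13 (SD, n = 3; adjusted p = 0.000601), and Mki67, the surfactant of the mitotic chromosome surface, from 15.96 ± 0.045 to 15.10 ± 0.25 (adjusted p = 0.00507). Among the genes that guard and cut cohesin, Sgo1 (Sgol1 on the array), which shields centromeric cohesin, measured 10.64, 10.47 and 10.53 with glutamine and 9.22, 9.09 and 9.23 without it, a change of -1.37 ± 0.079 (adjusted p = 0.000206). Espl1, which encodes separase, fell by 1.24. Pttg1, which encodes its inhibitor securin, measured 6.84, 6.61 and 6.43 with glutamine and 6.25, 6.09 and 6.22 without it. Its change of -0.44 ± 0.12 (adjusted p = 0.0379) was lost when any array but replicate 3 with glutamine was left out (adjusted p up to 0.121).

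Partner subunits (Smc2 with Smc4, Ska3 with Ska2), condensin I subunits with their condensin II counterparts, and the shugoshins were compared within arrays, as the difference between the 2 log2 values of each array, for 6 pairs. Smc2 fell by 1.13 log2 more than Smc4. Ncapd2, of condensin I, fell by 0.9992 more than Ncapd3, its counterpart in condensin II, and Ncapg fell by 0.31 more than Ncapg2. Ska3 fell by 0.68 more than Ska2, which fell by 1.12, close to the change of Ska1 (-1.22), a subunit not paired here. Sgo1 fell by 0.34 less than Sgo2a, the other shugoshin. In these 5 pairs the arrays of the groups did not overlap, which gives the smallest p that an exact two-sided permutation test of 3 against 3 arrays allows, 0.1 (0.12 adjusted over the 6 pairs), so none can pass 0.05. Ncaph and Ncaph2 differed by 0.28 with overlapping arrays (exact permutation p = 0.2).

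**Figure D3:**
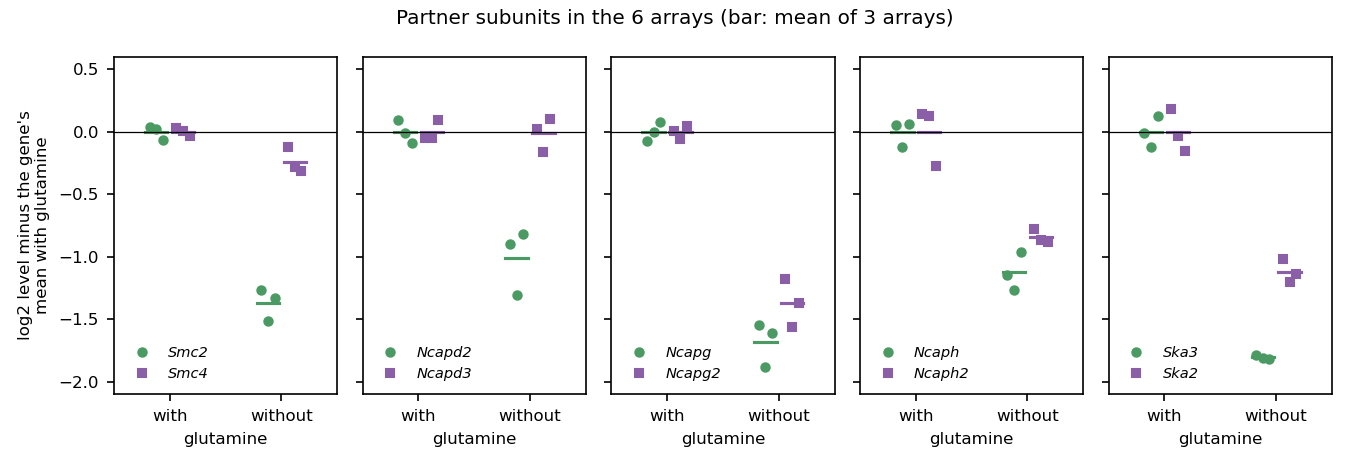
Log2 level minus the gene's own mean with glutamine (y axis) for 5 pairs of partner genes in the 3 arrays with and the 3 without glutamine (x axis); points are arrays and bars are means. Without glutamine Ncapd3 stays near 0 (-0.0095) and Smc4 is slightly lower (-0.24, arrays of the groups not overlapping), while Smc2 and Ncapd2 are at -1.37 and -1.01.

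Other genes of the same pathways, from lists drawn up by their known roles, were also measured. Of 74 listed genes 67 had a row, and of these 37 fell, 4 rose and 26 did not pass, with a median change of -0.38. Over all genes tested, the shares were 12.9% called lower and 9.29% called higher. Of 20 other centromere and kinetochore genes, 14 fell and 1 rose, with a median of -0.73. The MIS12 complex genes Mis12 (-1.65) and Nsl1 (-1.35), the dynein adaptor Spdl1 (-1.58) and Oip5 (-1.30), a partner of Mis18a, led the falls. The Clasp1 gene, whose product stabilises microtubule ends in interphase and mitosis alike, rose by 0.98 from 11.95 ± 0.12 (SD, n = 3; adjusted p = 0.00433) and also rose after either rescaling. Cenpc1, the hub of the inner network, did not pass (-0.29, adjusted p = 0.068).

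Condensin II, which is nuclear throughout the cell cycle, shares Smc2 and Smc4 with condensin I. Of its own subunits, Ncapg2 fell by 1.37 and Ncaph2 by 0.84. Ncapd3 measured 12.47, 12.47 and 12.61 with glutamine and 12.54, 12.36 and 12.62 without it, a difference of -0.0095 (95% interval -0.23 to 0.21, adjusted p = 0.951).

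Cohesin also acts outside mitosis, in folding interphase chromatin. Of 15 genes for its ring, loaders and release factors, 7 fell and 2 rose (among all genes, 12.9% fell and 9.29% rose). Their median change was -0.30. That median was -0.12 after quantile normalization, with 5 genes called lower, and -0.41 with 8 called lower once each array was centred on its median. Those that fell most were Cdca5 (-1.72), which encodes the cohesion factor sororin, Sgo2a (-1.71), Rad21 (-1.07), the subunit that separase cuts, and Esco2 (-0.78), the S phase acetyltransferase. The ring ATPase gene Smc3 fell by 0.46. Nipbl, the cohesin loader, rose by 0.71 (adjusted p = 0.00944, up to 0.0538 over the alternatives). Hdac8, the deacetylase that recycles cohesin, rose by 0.33 (adjusted p = 0.0269), a call lost after centring the arrays (0.22, adjusted p = 0.132) and without any 1 of 5 arrays. Of 16 genes for microtubule nucleation, 9 fell and 0 rose by limma, with a median of -0.38. After quantile normalization 7 were lower, with a median of -0.24, and after centring 13 were lower, with a median of -0.49. The augmin genes Haus4 (-1.43) and Haus6 (-1.03), the gamma-tubulin adaptor Mzt1 (-0.86) and Nedd1 (-0.84) fell most.

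Of 13 other cytokinesis genes, 5 fell and 1 rose (among all genes, 12.9% fell and 9.29% rose). Their median of 0.035 turned to -0.075 after centring the arrays. Cep55, the abscission factor, fell by 2.03, and Racgap1, which activates Ect2, fell by 1.42, and the kinase gene Cit (-1.01) and the myosin gene Myh10 (-0.88) also fell. Septin6 rose by 0.25 (adjusted p = 0.0377), a call lost after centring (0.14, adjusted p = 0.21) and whenever 1 array was left out.

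**Figure D4:**
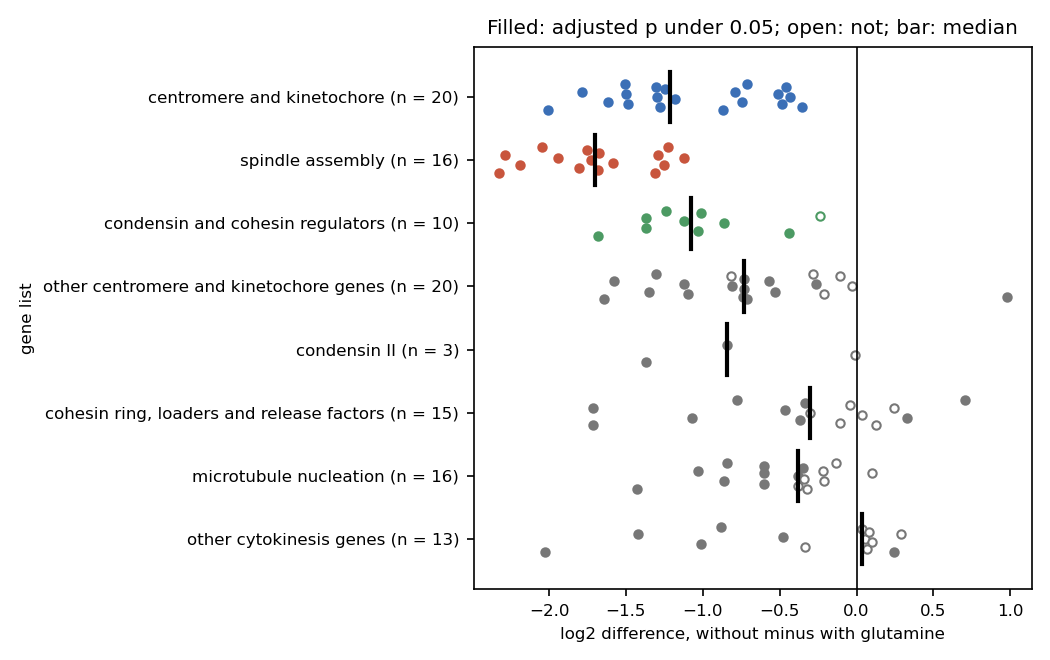
Log2 difference without minus with glutamine (x axis) for each measured gene of the 3 role groups (coloured) and the 5 other lists (grey); filled points passed the adjusted p threshold and bars are medians. Medians run from -1.70 for spindle assembly to 0.035 for other cytokinesis genes (-0.075 after centring the arrays), and the points farthest above 0 are Clasp1 (0.98) and Nipbl (0.71).

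The promoters were then searched for the same elements in all genes. RefSeq promoters matched 40 of the 47 listed members, among them Hjurp, which holds both elements and is counted here although it has no level. A CHR element lay in 26 of these (65%), against 19.9% of the 18120 measured genes with a promoter, and a CCAAT box in 26 (65%), against 41.6%. A promoter with both was found for 21 members (52.5%), against 8.13%. Within 50 bases of the annotated start, 20 members (50%) held a CHR element, against 5.23% of measured genes. Among genes called lower by at least 1 log2, members included, 28.4% held a CHR element. Over all genes called lower the share was 19.1%, and over genes called higher 18.2%, both slightly under the 19.9% of measured genes.

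By role, the element was present in 10 of 19 kinetochore promoters, 9 of 12 spindle promoters and 7 of 9 condensin and cohesin promoters. It was present in 3 of 3 condensin II promoters, 8 of 20 of the other kinetochore genes, 4 of 10 of the cohesin genes, 4 of 13 of the other cytokinesis genes and 1 of 13 of the microtubule nucleation genes. The 25 measured members with the element had a median change of -1.31, with a range of -2.28 to -0.51, and the 14 without it a median of -0.997, with a range of -2.19 to -0.35. The ranges overlap widely: Tacc3 had neither element in its window and fell by 2.19, and Top2a, whose promoter holds several of both, fell by 1.03. Split by CCAAT box, the 25 measured members with one had a median change of -1.25 and the 14 without it -1.29. The 20 members with both elements had a median of -1.31, against -1.24 for the other 19. A match of letters describes the window and shows no binding, and none of these differences between members with and without an element was tested.

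Markers of the labelled cells were present. The 7 measured CD4 T cell markers averaged 14.37 to 14.49 log2 per array with glutamine and 14.47 to 14.54 without it. Among them Thy1 fell by 0.93 (adjusted p = 0.00997), while Cd3d rose by 0.88 (0.0175) and Cd5 by 0.51 (0.0119). All 6 TH17 markers fell (11.61 to 12.27 against 7.40 to 7.68). All 4 B cell markers (array means 3.91 to 4.06), all 3 NK cell markers (4.02 to 4.27) and all 4 dendritic cell markers (3.67 to 3.82) read below 7 log2 on every array. Of 6 macrophage markers, averaging 4.66 to 4.81 with and 4.67 to 4.78 without glutamine, Lyz2 fell from 5.80 to 4.14 and Cd68 rose from 7.59 to 9.16, while Csf1r and Adgre1 stayed under 4. The 4 granulocyte and mast cell markers averaged 6.01 to 6.30 with and 5.81 to 5.97 without glutamine. Among them Cpa3 fell from 10.71 to 10.34 while Elane and Mpo stayed under 4. The granulocyte marker Ly6g read 7.23 ± 0.70 with and 6.71 ± 0.30 without glutamine (SD, n = 3) and did not pass (limma adjusted p = 0.314). Of the CD8 markers, Cd8b1 fell from 8.10 to 7.39 while Cd8a stayed under 4. Their part in the falls of the mitotic genes was not tested. The median over all array rows was 4.18 to 4.21 log2 with glutamine and 4.33 to 4.38 without it, and 695 to 887 rows per array stood above 16 log2.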

How the data were processed

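RNA of 6 cultures, 3 per group, was hybridised to 1 array each. Each deposited value is a log2 level for 1 row of the array; the authors obtained it by RMA, for which the submitters' processing notes name Transcriptome Analysis Console 4.0. The options and annotation they used are not given in the sources here. RMA corrects background, normalizes and summarises probes, which does not make levels of different rows comparable. The marker means and the 7 log2 cut therefore only describe levels.

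Gene names came from the platform annotation and current symbols from RefSeq's GRCm38.p6 gene table. Among 65956 rows, 31080 named 1 gene, 1670 several, and 33206 are unnamed here. The row with the highest mean was kept per symbol, leaving 30627 genes, with no filter on low values. Groups were compared in R 4.3.3 by limma 3.58.1, using lmFit then eBayes without covariates, two-sided, with Benjamini-Hochberg adjustment over all genes and a threshold of 0.05. On simulated data with 30627 genes, 50 changed at each size, it recovered 50%, 76%, 96% and 100% of changes of 0.5, 1, 2 and 3 log2, with 7 false calls. Only 200 genes changed there, with noise independent between genes, whereas 22.2% of genes were called in the real data. These rates therefore need not hold for the real arrays. Single within-array differences were tested by exact permutation (scipy 1.17.1). Promoter sequences are RefSeq's. Figures used matplotlib 3.10.9.

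The members and lists were chosen with earlier results of these data known. All members were named; values in each array are given for the 3 largest and 2 smallest changes per role and for any member not called. Of the other lists, all of condensin II, up to 4 of the largest called changes and any called rise were named; Cenpc1, Smc3 and Ska2 were chosen after their values were seen. The main fit used no pairing of arrays by replicate number. Deviations of same-numbered arrays correlated at 0.066, -0.23 and 0.28, and those of differently numbered arrays at -0.33 to 0.30. With 3 arrays a group, these values cannot show whether cultures were paired. Precision is limited by there being 3 arrays a group.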

Additional observations from a re-analysis of the deposited data

How the results depend on the processing

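The count of 45 members lower stayed between 39 and 44 when 1 array was left out, and no member rose in any of the 14 alternative fits. The 16 spindle genes passed in each leave-one-out fit, against 15 to 19 of the 20 kinetochore genes and 8 to 9 of the 10 condensin and cohesin regulators. Other kinetochore genes numbered 11 to 13 lower, cohesin genes 5 to 7, microtubule nucleation genes 7 to 9, other cytokinesis genes 5 to 6 and condensin II 2, and the median change of the members ran from -1.39 to -1.22. Of the members, 38 were called in every alternative fit; no change turned direction. Quantile normalization moved the members' median to -1.12. Centring the arrays on their medians moved the median of all genes by -0.11 and that of the members to -1.41. With a change of at least 1 log2 required as well, 2.84% of all genes were lower. At that cut 11 of 20 kinetochore members, 6 of 20 other kinetochore genes and 1 of 3 condensin II genes were lower. So were 3 of 15 cohesin genes, 2 of 16 microtubule nucleation genes and 3 of 13 other cytokinesis genes. The unmoderated statistic left 9 of 20 other kinetochore genes and 3 of 13 other cytokinesis genes, and 6 members lost their calls with it. The share of all genes called by that statistic was not counted. The replicate block left 44 members lower, with Cenpt at adjusted p = 0.0551. An adjusted p under 0.01 left 38 members lower, and the fit over genes above the median level left 45.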
